A study of Mus musculus with 9 samples.

Results

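The genes described here encode 9 transcriptional corepressors and partners of BTB factors: Ncor1, Hdac3, Tbl1x and Tbl1xr1 of the NCoR complex, Bcor and Bcorl1, Sin3a, Rcor1 and Cul3. They were taken by gene symbol from a list of known corepressors, drawn up with earlier results of these data known, out of the 55487 genes of the count table, and all 9 were among the 16955 genes tested. The RNA came from MCEC, an established endothelial line of mouse heart, and was sequenced as bulk poly-A RNA-seq. There were 3 libraries each of unmodified cells (WT), of cells with Zbtb46 knocked down (KD) and of cells with enforced Zbtb46 overexpression (OE). The labels state neither how the knockdown and the overexpression were made nor whether either line is 1 clone, and no vector control was analysed here. They also do not say whether the 3 libraries of a group came from separate cultures, so every p-value below measures only the spread between these libraries.

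Zbtb46 carries a BTB domain and zinc fingers. In this family of factors the zinc fingers contact DNA, and the BTB domain pairs the protein with itself and, in well-studied relatives such as BCL6 and PLZF, docks corepressors. NCoR1 binds and activates the deacetylase HDAC3 and carries the WD40-repeat proteins TBL1X and TBL1XR1. BCOR and BCORL1 belong to a variant Polycomb complex that ubiquitinates histone H2A. SIN3A and RCOR1 (CoREST) are scaffolds for HDAC1 and HDAC2, RCOR1 together with the histone demethylase KDM1A. CUL3 is the scaffold of ubiquitin ligases that use BTB proteins as substrate adaptors. Whether any of these proteins binds Zbtb46 was not measured in this series.

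Total counts ran from 39491828 to 55745849 per library, and ribosomal RNA took 7.44% to 18.2% of them. For replicates 1 to 3 it was 17.3%, 7.44% and 10.0% in WT, 9.55%, 12.0% and 11.9% in KD, and 14.4%, 15.8% and 18.2% in OE. All OE libraries were thus above all KD libraries in this share. WT replicate 2 had both the highest total and the lowest share of ribosomal RNA. Zbtb46 itself, as CPM (counts scaled to library size with TMM factors), stood at 13.3, 14.4 and 13.2 CPM in WT replicates 1 to 3, at 11.7, 11.4 and 10.7 CPM in KD, and at 192, 189 and 194 CPM in OE. The KD libraries were thus all below WT, by 17.8% on average, and the OE libraries were 14.0-fold above WT, with adjusted p values of 0.00144 and 3.22e-21 by edgeR. Of 13 endothelial markers, 7 passed the filter on low counts; Erg had no count in any library, Pecam1 had at most 10 counts and Cdh5 at most 7 in any library. These 3 defining markers were thus at or near 0, and Eng made up most of the endothelial sum. Summed over the 13, WT libraries held 152 to 164 CPM, KD libraries 126 to 133 and OE libraries 115 to 127. The list did not move as one. From WT to OE the mean of Eng went from 125 to 84.9 CPM, and Kdr, Tek and Egfl7 were also lower. Esam, at 0.612 ± 0.407 CPM in WT and 0.47 ± 0.186 in OE (mean ± SD), differed by less than its WT SD. Flt1 went up from 17.2 to 21.9 CPM and Ecscr from 4.73 to 8.18. Summed over 7 fibroblast markers, WT libraries held 8090 to 8960 CPM, KD libraries 8040 to 8170 and OE libraries 5070 to 5190. Most of that sum was Col1a1 (mean 5260 CPM in WT and 4030 in OE) and Col3a1 (3150 and 1050). Col1a2, Lum and Postn, 3 of the 7, were under 1 CPM in every library. The 5 smooth muscle markers summed to 9.70 to 11.5 CPM in WT, 4.62 to 5.12 in KD and 3.54 to 4.47 in OE, while cardiomyocyte and leukocyte lists stayed at or below 5.19 CPM in every library. Most of the smooth muscle sum in WT was Acta2, at a mean of 7.73 CPM, beside 2.8 in KD and 1.76 in OE. The group means of Tagln, Myh11, Cnn1 and Des were at most 0.855 CPM. The part of these shifts in the results below was not tested, and in bulk RNA a change in the share of cells of a type and a change in RNA per cell cannot be told apart.

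Per length of annotated exons, the 9 genes formed a well-expressed set of 6 and a weaker set of 3. In WT the order, as mean CPM per kb ± SD (n = 3), began with Tbl1x at 26.8 ± 1.95, Cul3 at 21.4 ± 2.20, Ncor1 at 21.1 ± 1.78, Sin3a at 18.8 ± 0.895, Hdac3 at 16.3 ± 0.247 and Rcor1 at 11.4 ± 1.24. It ended with Bcor at 4.94 ± 0.148, Tbl1xr1 at 4.16 ± 0.248 and Bcorl1 at 3.68 ± 0.339. Among neighbours in this order, the WT libraries overlapped between Cul3 and Ncor1, Ncor1 and Sin3a, and Tbl1xr1 and Bcorl1, and were separate for the other neighbours. Tbl1x lay above 89.0% and Bcorl1 above 50.3% of all tested genes with a known length in WT. With the length of the longest transcript in place of all exons, Ncor1 stood at 29.9 CPM per kb in WT and Cul3 at 22.1, which puts Ncor1 ahead of Cul3. Zbtb46 was below all 9 in WT, at 1.60 ± 0.0732 CPM per kb, and reached 22.5 ± 0.313 in OE, where Cul3 stood at 23.7 and Tbl1x at 27.9. With the longest transcript Zbtb46 in OE stood at 36.1, above Cul3 at 24.6 and Ncor1 at 27.5 and below Tbl1x at 37.6. Whether Zbtb46 or Cul3 is the higher in OE thus depends on the length used. Both values of Zbtb46 assume reads over the whole length, and the parts of Zbtb46 carried by the overexpression construct are not given in the sources used here.

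**Figure D1:**
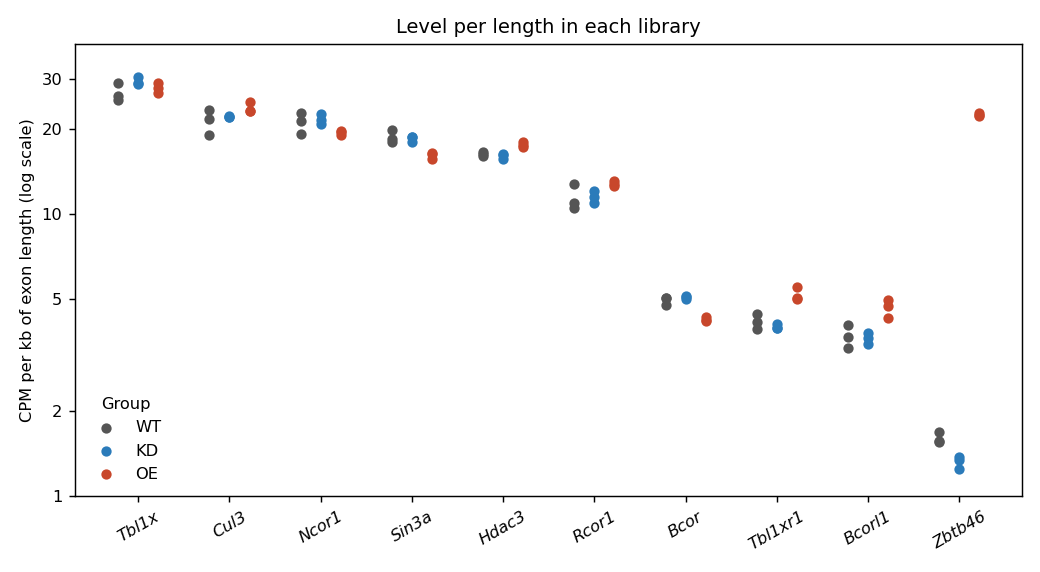
Level per length of the 9 corepressor genes and Zbtb46 (x axis, ordered by the WT mean) as CPM per kb of exon length (y axis, log scale), with 1 point per library for WT (grey), KD (blue) and OE (red). Tbl1x was the highest member in each group, Bcor, Tbl1xr1 and Bcorl1 were the lowest 3 in each group, and Zbtb46 in OE lay within the range of the well-expressed members.

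In KD, at 17.8% less Zbtb46 mRNA than in WT, no corepressor gene passed the test. At an adjusted p under 0.05 (Benjamini-Hochberg over all genes, quasi-likelihood test of edgeR) 0 of 9 were called, where 21.3% of all genes tested were, and for 0 of 9 did the KD libraries lie apart from WT, against 34.7% of all genes. With an unadjusted p under 0.05 there was 1, Tbl1x. DESeq2 called 1 member, again Tbl1x, and limma-voom called 0. The fold changes ran from -0.06 for Tbl1xr1 to 0.14 for Tbl1x on the log2 scale, with a median of 0.01, and all 9 were smaller in size than the median of all genes, 0.16.

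The 95% intervals of the KD differences give the range that these data allow. For Tbl1x it ran from 2.49% to 18.3%, for Tbl1xr1 from -12.4% to 4.37%, for Cul3 from -5.27% to 12.4% and for Rcor1 from -8.24% to 10.3%. For Sin3a the 95% interval of the KD difference was -7.47% to 5.79%, for Hdac3 -7.96% to 5.02%, for Ncor1 -4.66% to 10.5% and for Bcor -5.04% to 10.4%. The widest was that of Bcorl1, from -11.3% to 9.20%. Tbl1x, the WD40 subunit of the NCoR complex that is encoded on the X chromosome, measured 178, 204 and 184 CPM in WT and 206, 215 and 204 CPM in KD. Its highest WT library reached the KD range, and for the log2 fold change of 0.14 (SE 0.064) edgeR gave an adjusted p of 0.0515. Without WT replicate 2 it was 0.20 and passed, with an adjusted p of 0.000785 by edgeR, and over the 19 alternative fits, of which 6 called it, the adjusted p ran from 0.000785 to 0.402.

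In OE, 5 of the 9 genes differed from WT at an adjusted p under 0.05 by edgeR, beside 36.4% of all genes tested. Tbl1xr1, Bcorl1 and Rcor1 rose (all genes, 17.0%), and Bcor and Sin3a fell (all genes, 19.5%). The other 4, Ncor1, Hdac3, Tbl1x and Cul3, did not pass. The changes were modest, between -0.22 and 0.33 on the log2 scale, with a median of 0.11 and a median size of 0.17, beside a median of 0.00 and a median size of 0.22 for all genes. In 5 of 9 genes the OE libraries did not overlap WT, against 45.1% of all genes. They lay above WT in 3 (all genes, 21.7%) and below it in 2 (all genes, 23.5%). The calls for Bcor, Bcorl1, Tbl1xr1 and Sin3a held in all 19 alternative fits, each library left out in turn included. Scaling by library totals alone, which lowers the share of higher genes among all genes called from 46.6% to 31.6%, gave 2 members higher and 2 lower in place of 3 and 2.

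The upstream sequences of these 4 genes are shown because these genes kept their calls in OE, Bcor and Sin3a as lower and Bcorl1 and Tbl1xr1 as higher. Each is the 250 bases before the RefSeq start on GRCm38.p6, 5′ to 3′ on the gene's strand. Capitals mark matches, on either strand, to the GC box GGGCGG, the CCAAT box CCAAT, the E-box CACGTG, the CRE half-site TGACGT or the TATA box TATAAA.
Bcor, chrX:12160356-12160605, minus strand: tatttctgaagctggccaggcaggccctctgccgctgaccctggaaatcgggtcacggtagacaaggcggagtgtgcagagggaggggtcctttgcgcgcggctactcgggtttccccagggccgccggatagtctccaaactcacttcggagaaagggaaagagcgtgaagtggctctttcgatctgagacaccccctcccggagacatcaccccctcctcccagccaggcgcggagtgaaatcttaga
Bcorl1, chrX:48341108-48341357, plus strand: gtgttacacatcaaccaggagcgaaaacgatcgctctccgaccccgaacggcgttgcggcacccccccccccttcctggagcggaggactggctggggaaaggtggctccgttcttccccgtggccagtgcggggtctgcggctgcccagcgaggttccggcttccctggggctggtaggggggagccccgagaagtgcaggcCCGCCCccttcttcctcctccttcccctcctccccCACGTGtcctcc
Tbl1xr1, chr3:22076402-22076651, plus strand: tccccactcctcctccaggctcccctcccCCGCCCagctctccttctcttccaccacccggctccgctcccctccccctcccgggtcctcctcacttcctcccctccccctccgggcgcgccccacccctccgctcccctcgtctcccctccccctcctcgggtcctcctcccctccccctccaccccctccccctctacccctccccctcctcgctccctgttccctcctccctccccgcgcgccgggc
Sin3a, chr9:57071790-57072039, plus strand: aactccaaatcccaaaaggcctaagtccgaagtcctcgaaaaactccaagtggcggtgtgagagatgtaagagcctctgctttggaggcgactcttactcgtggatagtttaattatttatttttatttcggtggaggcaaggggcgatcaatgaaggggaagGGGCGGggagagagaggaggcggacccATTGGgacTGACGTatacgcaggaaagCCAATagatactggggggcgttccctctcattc
Over windows of 300 bases, which add the 50 bases after the start, 8 of the 9 genes had an entry, Hdac3 being the other. A GC box was found in 7 of the 8, beside 35.7% of the 32851 promoters in the RefSeq table, a CCAAT box in 2 (37.4%), the CRE half-site in 2 (7.51%), the E-box in 1 (7.15%) and the TATA box in 0 (13.6%). Sin3a was the only one of the 4 sequences shown with CCAAT boxes or a CRE half-site, and Bcor had none of the 5 motifs. The promoter of Bcor was 61.0% G and C, that of Bcorl1 70.3% and that of Tbl1xr1 76.3%, while that of Sin3a was below the median of all promoters, 52.7%. Ncor1 and Cul3 had 72.3% G and C, Tbl1x 75.3% and Rcor1 69.3%, and the shares of all promoters were not matched for G and C. The RefSeq start lay 1209 bases from the GENCODE start for Ncor1, 214 for Tbl1x and 210 for Cul3. These matches describe letters only.

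**Figure D2:**
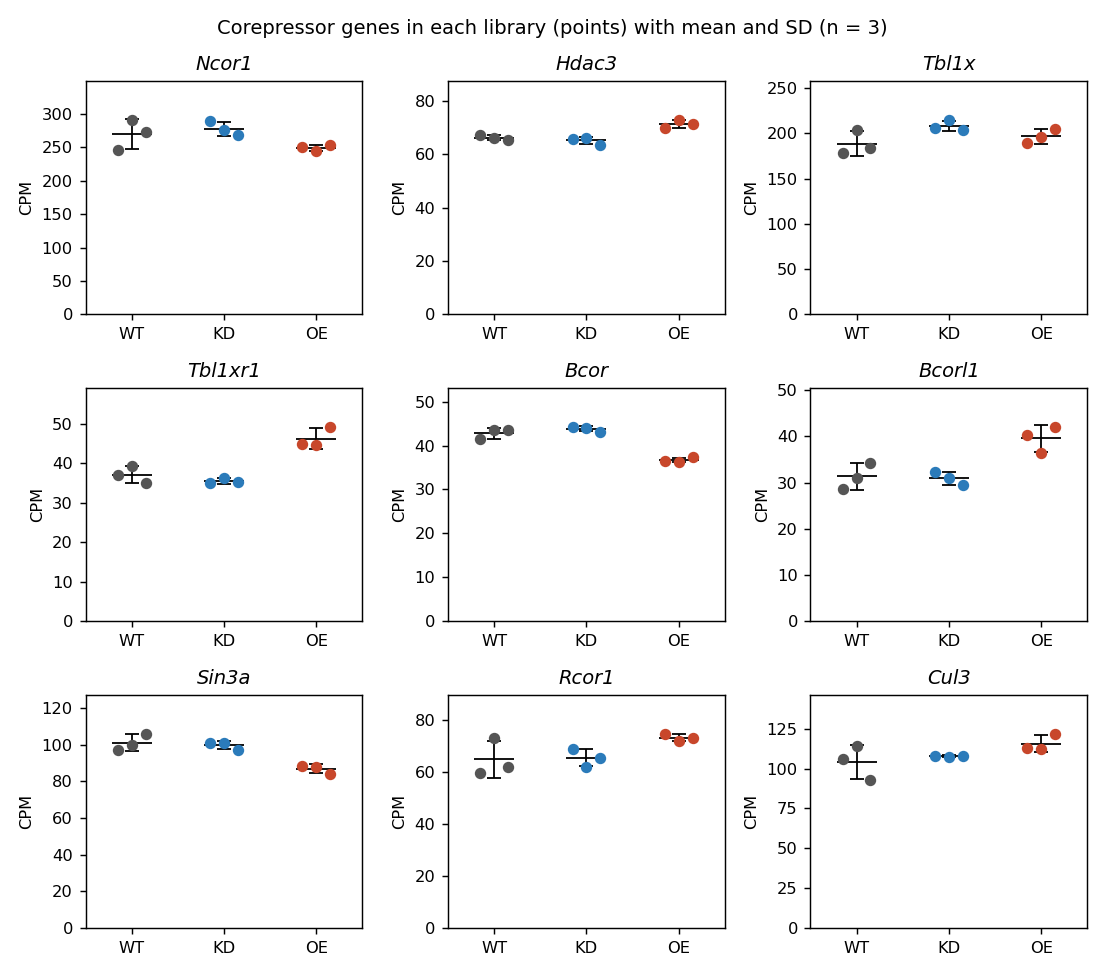
CPM (y axis, from 0) of each corepressor gene in each of the 9 libraries (points; WT grey, KD blue, OE red), with the mean and SD of each group of 3 (black). The OE points lie above all others for Tbl1xr1, Bcorl1 and Hdac3 and below all others for Bcor and Sin3a, and the KD points overlap WT in all 9 panels.

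Of the 4 listed subunits of the NCoR complex, 1 was called in OE against WT (all genes, 36.4%) and 3 in OE against KD (all genes, 41.5%). Tbl1xr1 (ENSMUSG00000027630; GRCm38 chr3:22076652-22216594, plus strand), the paralog of Tbl1x that helps exchange corepressors for coactivators, measured 36.9, 39.3 and 34.9 CPM in WT, 34.9, 36.3 and 35.1 CPM in KD and 44.9, 44.5 and 49.2 CPM in OE. Each OE library was higher than each of the other 6. The gene rose by 24.5% from WT to OE, or 0.32 (SE 0.068) in log2, and edgeR gave an adjusted p of 0.000247, and its window of 20 Mb on chromosome 3 had a median of 0.10 over 69 genes. Tbl1x itself (ENSMUSG00000025246; chrX:77511013-77662983, plus strand) stood at 189, 196 and 205 CPM in OE, inside the spread of WT and KD together, with a difference from WT of 0.06 in log2 (SE 0.069) and a 95% interval of -3.03% to 12.0%. Without WT replicate 2 the difference was 0.11 and passed, with an adjusted p of 0.0364 by edgeR, within a range of 0.0364 to 0.968 over the alternatives.

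Ncor1 (ENSMUSG00000018501; chr11:62316426-62458541, minus strand), the scaffold of the complex, measured 246, 291 and 273 CPM in WT, 289, 276 and 268 in KD and 250, 244 and 253 in OE. The OE libraries lay close together at the lower edge of the wide WT range. Against WT it stood at -0.12 in log2 (SE 0.073; edgeR, adjusted p 0.0745); without WT replicate 1, the lowest WT library, it was -0.18 and passed, with an adjusted p of 0.00305. Over its alternatives that adjusted p ran from 0.00305 to 0.242. Exons of Ncor1 overlap those of Pigl and Ttc19 on the opposite strand, and the use of strand in counting is not given in the sources used here. Hdac3 (ENSMUSG00000024454; chr18:37935844-37955016, minus strand), the deacetylase of the complex, measured 67.3, 66.2 and 65.3 CPM in WT, 65.9, 66.1 and 63.6 in KD and 70.0, 72.9 and 71.4 in OE. All OE libraries were above all WT libraries, yet at 0.11 in log2 (SE 0.021) edgeR gave an adjusted p of 0.0715, with a range of 0.0185 to 0.661 over the alternatives.

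Among the genes of the BCOR complex, the paralogs Bcor and Bcorl1 moved in opposite directions in OE. Bcor (ENSMUSG00000040363; chrX:12036740-12160355, minus strand) was first known as a corepressor of the BTB factor BCL6. It measured 41.4, 43.6 and 43.5 CPM in WT, 44.3, 44.1 and 43.2 in KD and 36.5, 36.3 and 37.3 in OE, so that the OE libraries formed a tight group below all others. It fell by 14.4% on the linear scale, or -0.22 (SE 0.028) in log2, and edgeR gave an adjusted p of 0.00186. Bcorl1 (ENSMUSG00000036959; chrX:48341358-48408049, plus strand) measured 28.6, 31.1 and 34.3 CPM in WT, 32.3, 30.9 and 29.5 in KD and 40.2, 36.4 and 42.1 in OE. Its WT and KD libraries were intermixed and its OE libraries lay above both. It rose by 26%, or 0.33 (SE 0.098) in log2, and edgeR gave an adjusted p of 0.000822. The medians of their windows on the X chromosome were -0.02 for Bcor and -0.01 for Bcorl1, both close to 0.

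Sin3a (ENSMUSG00000042557; chr9:57072040-57128366, plus strand), the scaffold of the SIN3 deacetylase complex, measured 97.0, 99.8 and 106 CPM in WT, 101, 101 and 97.2 in KD and 88.2, 88.0 and 83.9 in OE. The 3 OE libraries were the lowest of the 9. It fell by 14.2%, or -0.22 (SE 0.046) in log2, and edgeR gave an adjusted p of 0.000722. The gene lies in a stretch of chromosome 9, from 40 to 60 Mb, where the median over 205 tested genes was -0.41 in log2 for OE against WT, so that Sin3a fell by less than the median gene around it. Relative to that median it stood at 0.19, and relative to the window's median of -0.535 in OE against KD at 0.33. The part of this regional shift in the fall of Sin3a was not tested. Its exons overlap 2 noncoding genes on the other strand, Man2c1os and 2700012I20Rik, of which Man2c1os had a mean of 14.1 counts.

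Rcor1 (ENSMUSG00000037896; chr12:111039351-111115901, plus strand), the CoREST scaffold, measured 59.6, 72.8 and 62.0 CPM in WT, 68.6, 62.0 and 65.4 in KD and 74.7, 71.8 and 72.9 in OE. Its OE libraries were tight, but WT replicate 2 lay among them. At 0.17 in log2 (SE 0.090) it passed narrowly by edgeR, with an adjusted p of 0.0394. The call was lost in 12 of 19 alternatives, among them those without WT replicate 1 (adjusted p of 0.182), WT replicate 3 (0.160) or any 1 KD or OE replicate, and the adjusted p ran from 0.000296 to 0.392 over all of them. Cul3 (ENSMUSG00000004364; chr1:80264923-80340480, minus strand), the ligase scaffold, measured 106, 114 and 92.8 CPM in WT, 108, 107 and 108 in KD and 113, 112 and 122 in OE. WT replicate 2 again reached the OE range. At 0.15 in log2 (SE 0.094) its adjusted p was 0.0544 by edgeR; without WT replicate 2 it was 0.21 with an adjusted p of 0.00137, and over the alternatives the adjusted p ran from 0.00137 to 0.417.

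**Figure D3:**
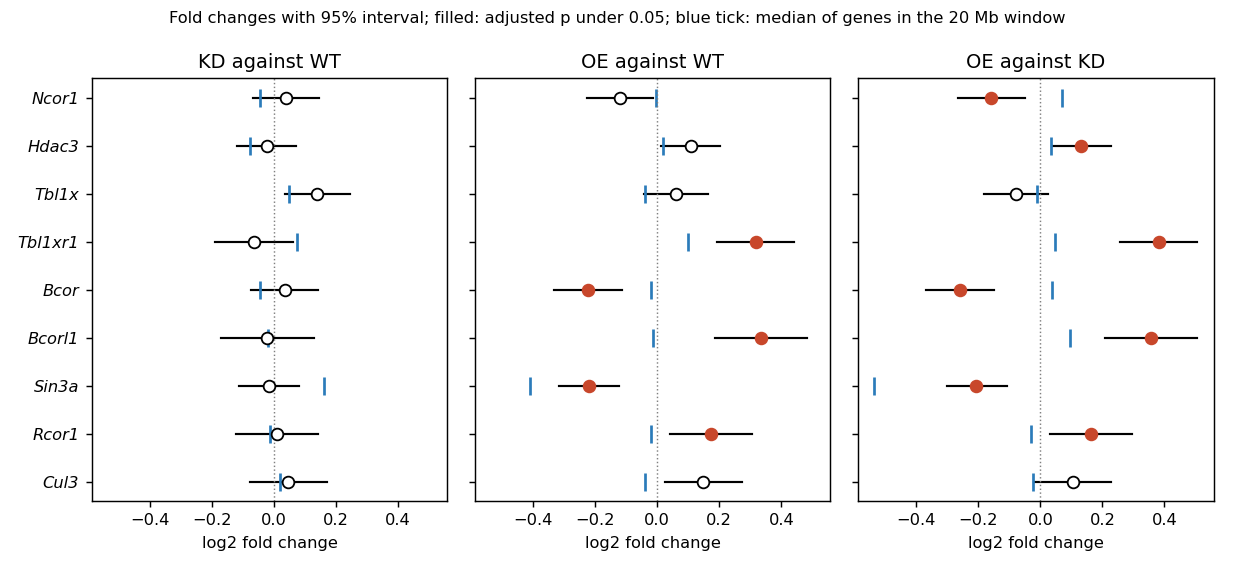
Log2 fold change (x axis) of each corepressor gene (y axis) in the 3 comparisons, with its 95% interval (line); filled points have an adjusted p under 0.05 and blue ticks mark the median of all tested genes in the same 20 Mb window. No point is filled in KD against WT, 5 are filled when OE is set against WT and 7 when it is set against KD, and for Sin3a the tick lies to the left of the point in both OE comparisons.

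OE against KD compares the groups farthest apart in Zbtb46, and it shares its OE libraries with the comparison above. Of the 9 genes, 7 were called at an adjusted p under 0.05 by edgeR, beside 41.5% of all genes. Of these, 4 were higher (all genes, 19.4%) and 3 lower (all genes, 22.1%). The groups did not overlap for 8 of 9, beside 55.4% of all genes, with OE above in 5 (27.2%) and below in 3 (28.2%). Tbl1xr1 was 30.2% higher in OE (log2 fold change 0.38, SE 0.049), Bcorl1 28% higher (0.36, SE 0.072), Rcor1 12.0% higher (0.16, SE 0.045) and Hdac3 9.60% higher (0.13, SE 0.025). Sin3a was lower by a log2 fold change of -0.21 (SE 0.031), Bcor by -0.26 (SE 0.016) and Ncor1 by -0.16 (SE 0.035). Tbl1xr1 had the smallest adjusted p, 2.38e-05, and Rcor1 the largest of the 7, 0.0454, by edgeR. The remaining 2, Tbl1x and Cul3, had log2 fold changes of -0.08 (95% interval -11.9% to 1.67%) and 0.10 (-1.32% to 17.1%). The median change of the 9 was 0.10, with a median size of 0.16, beside 0.01 and 0.25 for all genes. Bcor, Bcorl1, Tbl1xr1 and Sin3a passed in all 19 alternatives. The count was 4 without KD replicate 1, without OE replicate 2 or with library totals alone. Hdac3 was lost without any 1 KD replicate, OE replicate 2 or OE replicate 3 (adjusted p up to 0.105), Ncor1 without KD replicate 1, OE replicate 1 or OE replicate 2 (up to 0.0822), and Rcor1 without WT replicate 3 or any 1 KD or OE replicate (up to 0.206). Over all 19 alternatives, other scalings, filters and tools included, Hdac3 was lost in 7 (adjusted p up to 0.234), Ncor1 in 5 (up to 0.12) and Rcor1 in 10 (up to 0.237).

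A ratio of 2 genes within a library does not depend on how libraries are scaled. For 5 pairs of paralogs, chosen after their values were seen, counts per exon length were divided within each library. With 3 libraries a group, 0.1 is the smallest two-sided p of the exact permutation test. The 12 of 15 comparisons without overlap all had this p, which is 0.125 after Benjamini-Hochberg adjustment over the 15, so none reached 0.05. The WT level of Bcorl1 was 0.744 ± 0.0522 of that of Bcor (SD, n = 3), against 0.716 ± 0.0233 in KD and 1.1 ± 0.0677 in OE. By exon length the OE libraries stood at 1.12, 1.02 and 1.15 and the other 6 below 1. With the longest transcript in place of all exons, OE replicate 2 fell to 0.934, with the others at 1.03 and 1.05, so which paralog is the higher in OE depends on the length used. The OE ratio was 1.47-fold that of WT, whichever length is used, since a change of length scales all libraries alike.

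Tbl1xr1 was the minor paralog in each library, with WT at 0.156 ± 0.00743 of Tbl1x, KD at 0.135 ± 0.00138 and OE at 0.186 ± 0.00560 (SD, n = 3). Here the 3 groups were separate from each other, with KD below WT and OE above it. For Rcor2 over Rcor1 the groups were also in this order and separate, with 1.63, 1.22 and 1.61 in WT, 1.08, 1.06 and 1.09 in KD and 2.0, 2.05 and 2.14 in OE. Rcor3 over Rcor1 went the other way in OE, from 0.111 ± 0.0110 in WT to 0.0730 ± 0.00471, without overlap. Sin3b over Sin3a was 0.644 ± 0.0339 in WT and 0.747 ± 0.0332 in OE, also without overlap. The longest transcript moves these last 2 ratios by over 1.5 times, to 0.399 for Rcor3 over Rcor1 and to 1.11 for Sin3b over Sin3a in WT.

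**Figure D4:**
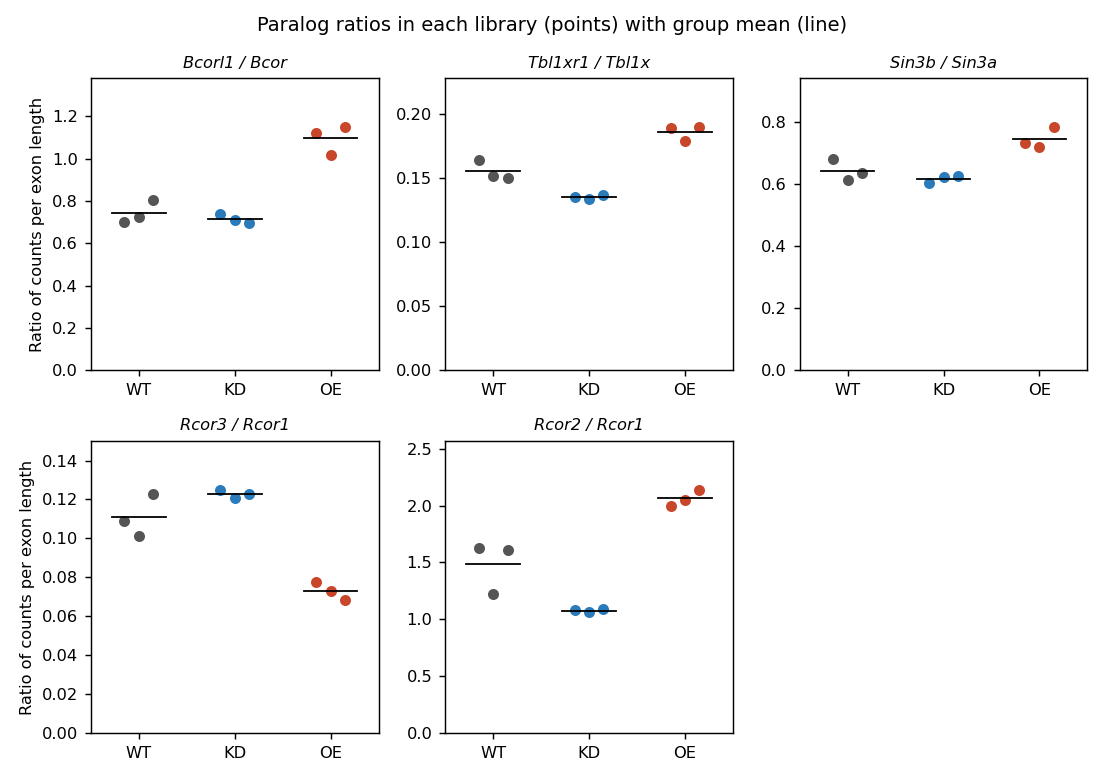
Ratio of counts per exon length between paralogs (y axis, from 0) in each library (points) by group (x axis), with the group mean as a line. In OE the Bcorl1 to Bcor ratio lies above that of all WT and KD libraries (above 1 by exon length, but at 0.934 in OE replicate 2 with the longest transcript), and the 3 groups are separate for Tbl1xr1 over Tbl1x and for Rcor2 over Rcor1.

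The 69 other genes listed for the same complexes were all tested. In KD, 12 of them rose and 11 fell, together 33.3% beside 21.3% of all genes. In OE, 17 rose and 14 fell against WT, together 44.9% beside 36.4% of all genes, and against KD 20 were higher and 18 lower (55.1%, beside 41.5%). Without KD replicate 1, 2 or 3 the KD count was 15, 14 or 12 (21.7%, 20.3% or 17.4%), beside 15.8%, 14.5% or 15.3% of all genes. With library totals alone it was 11 (15.9%), beside 14.6% of all genes. Median changes were 0.00 in KD and -0.015 in OE, beside -0.002 and 0.002 for all genes.

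In the lists that follow, the shares of all genes to read the counts against are 11.0% higher and 10.4% lower in KD, and 17.0% higher and 19.5% lower in OE. In the CoREST list, 1 of 11 partners rose and 6 fell in KD (63.6% called, all genes 21.3%), and 5 rose and 4 fell in OE (81.8% called, all genes 36.4%). Dropping WT replicate 1 brought the CoREST count in KD to 5 (45.5%, all genes 17.3%). Dropping either of KD replicates 1 and 2 also gave 5 (all genes, 15.8% and 14.5%). Library totals alone gave 6 in KD (54.5%, all genes 14.6%) and 10 in OE (90.9%, all genes 30.3%). The lowest OE count was 8 (72.7%), as with limma-voom (all genes, 36.6%). Rcor2, a paralog of Rcor1 that binds KDM1A, measured 53.0 ± 3.17 CPM in WT (SD, n = 3), but 39.1 ± 2.36 in KD and 83.7 ± 2.59 CPM in OE. It fell in KD (log2 fold change -0.44, SE 0.072) and rose in OE (0.66, SE 0.057), while Rcor1 stood at 0.01 in KD. The highest adjusted p of both Rcor2 calls was 1.22e-05 by edgeR. Rcor3, the third paralog, did not pass in KD (0.16, SE 0.088) and fell in OE (-0.43, SE 0.095). Kdm1a, the demethylase, did not pass in KD (-0.10, SE 0.068) and rose in OE (0.48, SE 0.065). Without WT replicate 3 its KD value was -0.16 and passed, with an adjusted p of 0.00737 by edgeR.

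Hdac1, the deacetylase shared by the SIN3, CoREST and NuRD complexes, fell in KD (log2 fold change -0.46, SE 0.037) from 109 ± 3.21 to 79.1 ± 2.68 CPM and rose in OE (0.405, SE 0.031) to 144 ± 3.26 CPM. Rbbp4, a histone-binding subunit of SIN3 and NuRD, had the same pattern, with -0.30 (SE 0.020) in KD and 0.44 (SE 0.023) in OE. Hdac1, Rbbp4 and Kdm1a lie in 1 window of chromosome 4, from 120 to 140 Mb, whose 282 tested genes had a median of 0.35 in OE against WT. Relative to it the OE changes were 0.06 for Hdac1, 0.09 for Rbbp4 and 0.13 for Kdm1a. In KD the window had a median of -0.18, relative to which Hdac1 stood at -0.28, Rbbp4 at -0.12 and Kdm1a at 0.08, the last with its sign turned. The part of the regional shift in these genes was not tested. Hdac2, the paralog of Hdac1, lies on chromosome 10 in a window with a median of 0.01; it did not pass in KD (0.04, SE 0.052) and rose in OE (0.23, SE 0.047). Of the 17 SIN3 partners, 3 rose and 2 fell in KD (29.4% called, all genes 21.3%), and 5 rose and 1 fell in OE. The SIN3 count in KD was 3 without KD replicate 3. With library totals alone it was 2 (11.8%), below the 14.6% of all genes. The OE share, 35.3%, was near that of all genes, 36.4%. Sin3b, the paralog of Sin3a, did not pass in either, at -0.07 (SE 0.045) and -0.005 (SE 0.045). Among 13 NuRD partners, 1 rose and 4 fell in KD (38.5% called, all genes 21.3%), and 6 rose and 1 fell in OE (53.8%, all genes 36.4%). The NuRD count in KD was 3 when WT replicate 1, either of KD replicates 2 and 3, or either of OE replicates 1 and 2 was left out, and the one in OE was 4 with library totals alone.

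Gps2, a small subunit of the NCoR complex, did not pass in KD (log2 fold change -0.07, SE 0.079) and fell in OE (-0.25, SE 0.077). Of 8 BCOR partners, 1 rose and 2 fell in KD (37.5% called, all genes 21.3%), and 1 rose and 1 fell in OE (25.0%, below the 36.4% of all genes). Leaving out KD replicate 3 brought the KD count to 0, and leaving out KD replicate 1 or either of WT replicates 1 and 3 brought it to 1. Kdm2b, which brings the BCOR complex to unmethylated CpG sites, fell in KD (-0.23, SE 0.062; not called without KD replicate 3, adjusted p 0.0522 by edgeR) and did not pass in OE (-0.08, SE 0.064). Pcgf1, its Polycomb RING finger subunit, passed in neither, at -0.19 (SE 0.128) and 0.16 (SE 0.110). Usp7, a deubiquitinase of the complex, did not pass in KD (0.04, SE 0.049) and rose in OE (0.17, SE 0.050); with library totals alone the OE value was 0.10 and not called, with an adjusted p of 0.296 by edgeR.

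Ctbp1, a corepressor that many zinc finger factors bind through a short peptide, did not pass in KD (log2 fold change 0.045, SE 0.020) and fell in OE (-0.17, SE 0.027). Its paralog Ctbp2 passed in neither, at 0.10 (SE 0.057) and -0.135 (SE 0.087). Of 23 partners of CUL3, 7 rose and 0 fell in KD (all genes, 11.0% higher and 10.4% lower), and 5 rose and 5 fell in OE (all genes, 17.0% and 19.5%). Of the 7 that rose in KD, Tnfaip1 kept its call in all 19 alternatives and 6 lost it in at least 1. The number that rose was 4, 3 or 2 when KD replicate 1, 2 or 3 was left out, 3 when WT replicate 3 was, and 1 with library totals alone, and the OE count was 6 without OE replicate 3 or with library totals alone. Tnfaip1, a BTB adaptor of CUL3, rose in KD (0.22, SE 0.021) and did not pass in OE (-0.07, SE 0.028). Klhl13, a BTB-Kelch adaptor with a role in mitosis, rose in KD (0.18, SE 0.049) and fell in OE (-0.73, SE 0.029), with adjusted p values of 0.0297 and 3.81e-09 by edgeR. Its KD call was lost without WT replicate 1, WT replicate 3, KD replicate 2 or KD replicate 3, with an adjusted p of up to 0.182. It was also lost with library totals alone, with upper-quartile factors and with only the 2 groups compared. In all, 7 of 19 alternatives lost it, with an adjusted p of up to 0.244 over them. Rbx1, the RING subunit of the ligase, passed in neither, at -0.05 (SE 0.048) and -0.095 (SE 0.046); without WT replicate 2 the OE value was -0.13 and passed, with an adjusted p of 0.0309 by edgeR.

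**Figure D5:**
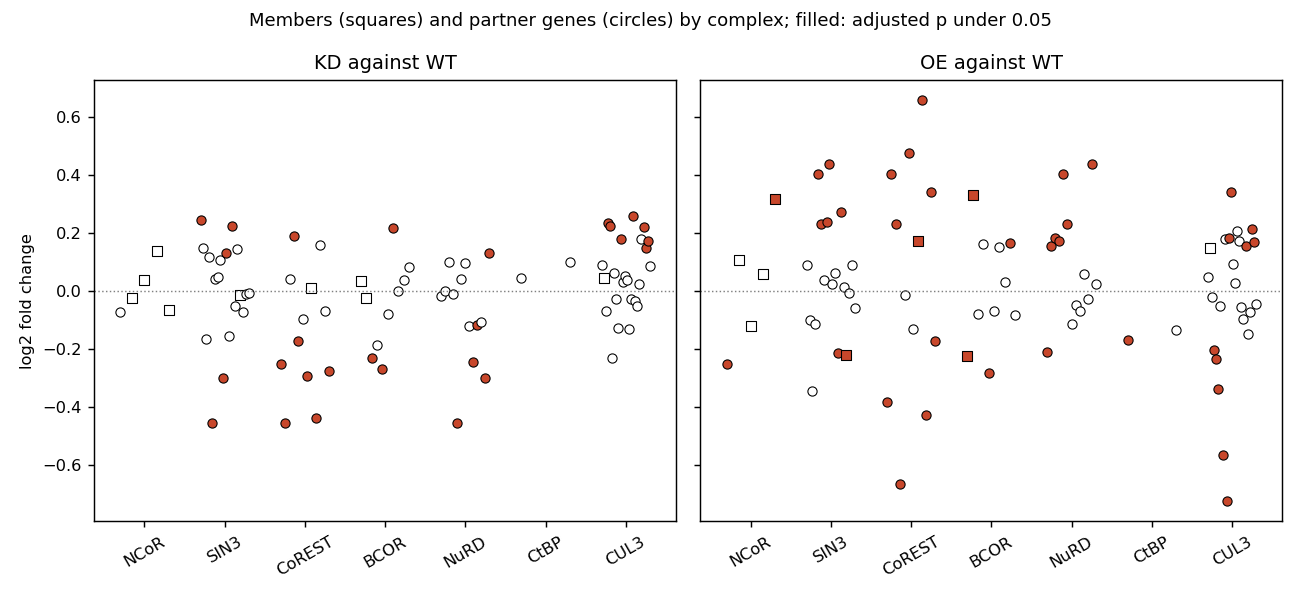
Log2 fold change (y axis) of the 9 corepressor genes (squares) and the 69 partner genes (circles) in KD and in OE against WT, by complex (x axis; genes shared by complexes are drawn in each); filled symbols have an adjusted p under 0.05. In KD no square is filled, and in OE 5 of 9 squares are filled, together with 9 of the 11 circles of the CoREST column.

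For Bcor, Sin3a and Rcor1, each called in both OE comparisons, the gene with the most similar profile was sought among 9711 genes whose mean reached 5 CPM, as the smallest root-mean-square difference in centred log2 CPM over the 9 libraries. For Bcor this was Ndst1, a heparan sulfate sulfotransferase, at 0.0256. For Sin3a it was Slc35c1, a GDP-fucose transporter, at 0.0182. Rcor1 was nearest to the splicing factor gene Prpf18, at 0.0412. The members' own root-mean-square departures from their means were 0.117 for Bcor, 0.109 for Sin3a and 0.115 for Rcor1, each larger than the distance to the nearest gene. That was nearly certain beforehand, since the nearest gene has the smallest of 9711 distances, and it is no sign of a shared control. None of these 3 members was nearest to another member.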

How the data were processed

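The values are raw counts: the deposited table gives a whole number for each Ensembl gene in each library, as its values and column names show; per the submitters' processing notes the build was GRCm38 (mm10). The aligner, counting program, use of strand and annotation release are not given in the sources used here. Genes repeated over several Entrez identifiers (168, with identical counts) were counted once. Positions and exon lengths came from GENCODE M21, promoters from RefSeq on GRCm38.p6. Counts were filtered with filterByExpr, scaled with TMM and fitted with edgeR 4.0.16 (robust quasi-likelihood, all 9 libraries, group only; limma 3.58.1, DESeq2 1.42.0, R 4.3.3), with Benjamini-Hochberg adjustment over 16955 genes and a threshold of 0.05. The procedure was tested on simulated counts. SE is from log2 CPM with a prior count of 2; 95% intervals are from the quasi-likelihood F statistic. Windows are 20 Mb with at least 10 tested genes. The members and lists were chosen with earlier results of these data known. Besides the 9 members, the text names Zbtb46, fixed paralogs and core subunits, the partner with the smallest p per list against WT, and the nearest gene in profile of each member called in at least 2 comparisons. Some genes that this rule names are not reported here. Alternatives were other scalings, count filters and tools, fits of 2 groups, a replicate block, no ribosomal or mitochondrial RNA, window medians removed, another exon length and each library left out. Each group had 3 libraries, and members had 1084 to 17341 counts per library.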

Additional observations from a re-analysis of the deposited data

How the results depend on the processing

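Counts of members called in KD against WT (0) became 1, always Tbl1x, with DESeq2 size factors, with a filter of at least 1 count, with DESeq2, with the replicate block, or without ribosomal and mitochondrial genes, and ran from 0 to 1 with 1 library left out. In OE against WT the 5 members became 4 to 7, and in OE against KD the 7 became 4 with library totals alone and 4 to 7 with 1 library left out, but 9 with only OE and KD in the fit, which added Cul3 and Tbl1x. Partner genes called in KD against WT (23) were 11 with library totals alone and 12 to 29 with 1 library left out; those in OE against KD (38) were 25 with library totals alone and 29 to 45. Counts over all genes stayed within 1.5 times the values given: 2537 to 4699 in KD against WT, 5228 to 6440 in OE against WT and 6072 to 7604 in OE against KD with 1 library left out. Library totals alone moved the share of higher genes among all called from 51.4% to 35.8% in KD against WT, and upper-quartile factors from 46.8% to 57.6% in OE against KD. Signs that changed all belonged to members that were not called, except Sin3a once window medians were removed (0.19 in OE against WT, 0.33 in OE against KD). With library totals alone these were Ncor1 (-0.001), Bcor (-0.003) and Rcor1 (-0.030) in KD and Tbl1x in OE (-0.005), and with upper-quartile factors Rcor1 in KD (-0.018). With 1 library left out, the KD log2 fold change ran from -0.025 to 0.096 for Ncor1, -0.083 to 0.047 for Bcorl1, -0.044 to 0.024 for Sin3a, -0.030 to 0.118 for Cul3 and -0.048 to 0.103 for Rcor1. Among the partners named, none of which was called there, Sin3b in OE turned to 0.028 with upper-quartile factors, and with 1 library left out Gps2 ran from -0.129 to 0.004 in KD and Sin3b from -0.054 to 0.018 in OE. Paralog ratios with the longest transcript were an alternative chosen after seeing the data. The causes were not tested.

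Replicate numbers are shared by the groups, but same-numbered libraries did not deviate together over all tested genes (correlations of deviations from -0.042 to 0.049). The labels do not say whether same-numbered libraries were handled together. These correlations cannot decide it, as shared handling that touched few genes would also leave them near 0. With the replicate block, 1, 4 and 6 members were called in the 3 comparisons: Tbl1x was called in KD against WT, and Rcor1 was not called in OE against WT (adjusted p of 0.0515 by edgeR) or OE against KD (0.0612).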
